A study of Mus musculus with 12 samples.

Results

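Histidine decarboxylase, encoded by Hdc, was followed across 12 glomerular libraries from diabetic and nondiabetic mice given arctigenin (ATG) or its vehicle. The gene is 1 of 14096 genes in the deposited tables. It was chosen by its log2 values in these same 12 mice, so its own levels are given as a description, without a test. All mice were male and carried the whole-body eNOS-/- (Nos3) deletion on a C57BL/6J background, so the loss of endothelial nitric oxide synthase is common to all 4 groups. Diabetes was induced at 8 weeks of age with streptozotocin (STZ), a beta cell toxin, at 50 mg/kg on 5 days, with citrate buffer given to the nondiabetic animals. Daily oral ATG, a lignan from the fruit of burdock, at 40 mg/kg, or 5% DMSO as vehicle, began 10 weeks after that and lasted 8 weeks. The groups were Con_DMSO (nondiabetic, vehicle), Con_ATG (nondiabetic, ATG), DM_DMSO (diabetic, vehicle) and DM_ATG (diabetic, ATG), with 3 mice in each, and glomeruli were taken 18 weeks after induction. Each library was counted as 1 mouse, since neither the labels nor the methods mention pooling.

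Hdc removes the carboxyl group of histidine to make histamine, in 1 step that needs pyridoxal phosphate, the active form of vitamin B6. Histamine acts on the receptors Hrh1 to Hrh4 and is cleared by methylation or oxidation. Mast cells and basophils are its best known sources, but other cells can make it, and in mouse kidney Hdc is known to be more abundant in females than in males. In the glomerulus, histamine is known for effects on vascular tone and permeability.

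Values are log2 of reads per gene scaled by 1 factor per library and not corrected for gene length. Between 23637741 and 29768572 reads per library lay in listed genes. All 28 proximal tubule markers and all 12 podocyte markers examined were among the listed genes, so the isolated glomeruli carried tubular RNA as well. Reads of Nos3, the deleted gene, numbered 846 to 2703 per library, and since reads were not separated by exon this does not check the deletion. In each nondiabetic group 1 mouse (replicate 1) has a title of another form than the other 2, and the titles otherwise differ between groups, so a batch behind the titles cannot be told apart from the group.

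Hdc (Entrez 15186, NM_008230) lies on the minus strand of chromosome 2 at 126593659 to 126618678 in GRCm38/mm10, with a transcript of 2399 bases in the deposited annotation and 12 exons in its GENCODE transcript with the most exons. No other GENCODE gene overlaps it on either strand. The promoter is shown because the level of the transcript is what varied between the groups. It is the RefSeq sequence of GRCm38.p6 at chr2:126618629-126618928, minus strand, with 250 bases before and 50 bases after the start. That start is the one of RefSeq. The GENCODE gene reaches further upstream, to 126619299, so the whole window lies inside it. Capitals mark a GC box.

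Hdc promoter: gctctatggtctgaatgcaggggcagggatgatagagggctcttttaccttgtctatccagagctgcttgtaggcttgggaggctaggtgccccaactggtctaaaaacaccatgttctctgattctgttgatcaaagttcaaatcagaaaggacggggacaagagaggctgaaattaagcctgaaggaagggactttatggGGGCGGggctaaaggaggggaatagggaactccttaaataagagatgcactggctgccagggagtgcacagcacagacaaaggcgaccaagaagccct

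Of 5 motifs searched on both strands, the GC box GGGCGG was found, 48 bases before the start. It occurs in 35.7% of 32851 mouse promoters of the same length. No match was found in this window to the TATA box TATAAA (13.6% of promoters), the AP-1 site TGANTCA (7.81%), the cyclic AMP response element TGACGTCA (1.79%) or the HNF4 site CAAAGTCCA (0.475%). A match is a run of letters and not a measured binding site.

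Hdc was higher in every diabetic mouse than in every nondiabetic mouse. In Con_DMSO its log2 level was 8.22, 7.68 and 8.07 (mean 7.99 ± 0.28 SD, n = 3), from 189 to 272 reads. In Con_ATG it was 7.27, 7.78 and 7.91 (7.65 ± 0.34, n = 3), from 121 to 215 reads. In DM_DMSO it was 10.32, 9.74 and 10.46 (10.17 ± 0.38, n = 3), from 797 to 1405 reads. These 3 groups show the main contrast, with a gap between the diabetic vehicle mice and either nondiabetic group. In DM_ATG it was 9.81, 9.67 and 9.57 (9.68 ± 0.12, n = 3), from 737 to 830 reads.

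**Figure D1:**
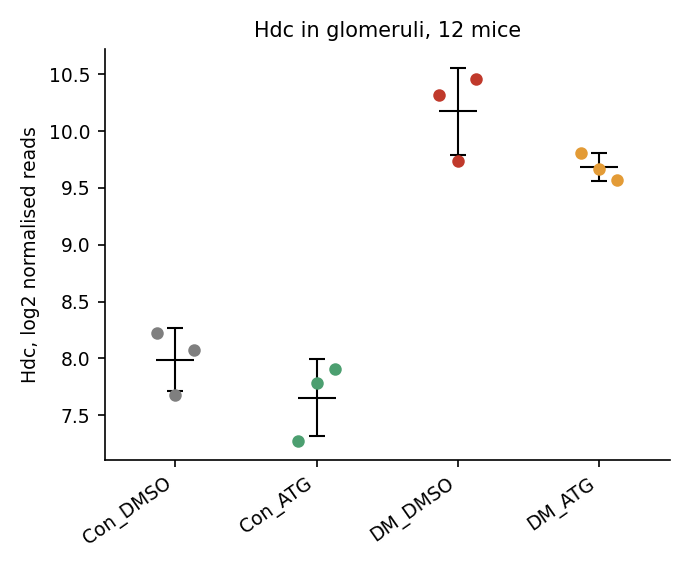
Hdc level in each of the 12 mice (points, log2 normalised reads on the vertical axis) by group, with the group mean and SD (black). The 6 diabetic mice lie at 9.57 to 10.46 and the 6 nondiabetic mice at 7.27 to 8.22.

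The lowest diabetic mouse stood 1.35 on the log2 scale, or 2.54-fold, above the highest nondiabetic mouse. Of all listed genes, 13.3% had all 6 diabetic mice above all 6 nondiabetic mice, and 4 of them had a wider gap than Hdc: Cdk1 (1.67), Eda2r (1.65), Ckap2 (1.60) and Psrc1 (1.60). Cdk1 is the kinase that drives entry into mitosis, Ckap2 and Psrc1 encode spindle proteins, and Eda2r is a receptor of the TNF family. The order of the group means was DM_DMSO, DM_ATG, Con_DMSO, Con_ATG. DM_DMSO and DM_ATG overlapped, since the lowest DM_DMSO mouse (9.74) was below the highest DM_ATG mouse (9.81), and the 2 nondiabetic groups overlapped as well. Only the step from DM_ATG down to Con_DMSO exceeded the spread of the mice.

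The difference between diabetic and nondiabetic mice was 2.18 (log2, SE 0.22) under vehicle, or 4.53-fold, and 8 listed genes had a higher difference. Under ATG it was 2.03 (SE 0.22), or 4.09-fold, with 16 listed genes higher. Throughout, a difference under vehicle is DM_DMSO minus Con_DMSO and a difference under ATG is DM_ATG minus Con_ATG. Both comparisons are given side by side and have no mouse in common, but each shares a group with the comparisons of ATG with vehicle. DM_ATG was below DM_DMSO by 0.49 (SE 0.22), a 1.40-fold lower mean with overlapping mice. Con_ATG was below Con_DMSO by 0.34 (SE 0.22), a 1.27-fold lower mean, also with overlapping mice. The difference between both ATG effects (the interaction) was -0.15 (SE 0.30) for Hdc, and 0.546% of all listed genes were called for that term. The second of these ATG differences came to -0.03 without the 2 nondiabetic mice whose titles differ in form (Con_DMSO replicate 1 and Con_ATG replicate 1), and to -0.15 without Con_ATG replicate 1 alone. Leaving out each mouse in turn gave 2.03 to 2.40 for diabetes under vehicle and 1.84 to 2.16 under ATG. In RNA from whole glomeruli, more cells of a type and more RNA per cell cannot be told apart.

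Per kilobase of transcript, Hdc ranked above 23.2% of listed genes in Con_DMSO and 19.6% in Con_ATG. It ranked above 63.9% in DM_DMSO and 53.2% in DM_ATG. These ranks use the group mean on the linear scale divided by transcript length.

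Among the 1097 listed genes whose mean log2 value lay within 0.25 of that of Hdc (8.87), none had a higher difference between diabetic and nondiabetic mice, under vehicle or under ATG. In absolute size 1 of them under vehicle and 7 under ATG differed by more than Hdc, all lower in diabetic mice. The SD of Hdc over the 12 mice was 1.1, and 4 of these genes (0.365%) had a larger one, against a median of 0.21. Its range was 3.19, or 9.13-fold, against a median range of 0.69. Within groups Hdc was also variable, with a pooled SD of 0.30 that 165 of the 1097 genes (15.0%) exceeded. The 3 genes next below it in mean level were Hps6, Exosc6 and 1700017B05Rik, and the 3 next above were Dennd6b, Usb1 and Rngtt. Their differences for diabetes under vehicle ran from -0.05 in Rngtt to 0.89 in 1700017B05Rik. Exosc6, a subunit of the RNA exosome, rose by 0.56 (SE 0.14, adjusted p = 0.0217 by limma), a call lost without Con_DMSO replicate 2 or DM_DMSO replicate 1 or 2 (adjusted p up to 0.0901). 1700017B05Rik rose by 0.89 (SE 0.13, adjusted p = 0.00371 by limma). Dennd6b, at -0.00 (SE 0.087) under vehicle and 0.03 under ATG, is an example of a gene of the same mean level whose diabetic and nondiabetic means were nearly equal.

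Proximal tubule RNA moved in the opposite direction to Hdc. Of 28 proximal tubule markers, 22 fell in diabetic mice under vehicle (median difference -1.59) and 28 fell under ATG (median -1.88) by limma at an adjusted p under 0.05, while 8.63% of all listed genes fell under vehicle (18.9% called in all) and 20.8% under ATG (46.7% called in all). Slc34a1, the main phosphate transporter of the proximal tubule, was at 15.27, 14.90 and 14.13 in Con_DMSO and at 13.18, 13.50 and 12.35 in DM_DMSO (difference -1.76, SE 0.38, adjusted p = 0.0133). The call of Slc34a1 was lost without Con_DMSO replicate 1 or 2 (adjusted p up to 0.0565), and the count of 22 came to 10 without either of these mice and to 11 without the 2 mice with unnumbered titles. Lrp2, the endocytic receptor megalin, fell by 1.70 (SE 0.35, adjusted p = 0.0107). The mean of the 28 markers was 12.44, 12.17 and 11.53 in Con_DMSO, 12.69, 13.27 and 12.60 in Con_ATG, 10.71, 10.92 and 9.74 in DM_DMSO, and 10.96, 11.32 and 10.40 in DM_ATG. Every diabetic mouse was below every nondiabetic mouse in this mean. Within DM_DMSO, the mouse with the lowest tubule mean had the highest Hdc level, whereas within DM_ATG the mouse with the lowest tubule mean had the lowest. With the tubule mean as a covariate, the Hdc difference was 1.98 (SE 0.38) under vehicle and 1.78 (SE 0.44) under ATG. Since no diabetic mouse reaches the tubule mean of a nondiabetic mouse, the covariate and diabetes are hard to tell apart, and in that fit 12 listed genes rose and 1 fell under vehicle, in place of 1442 and 1217, and 54 rose and 2 fell under ATG, in place of 3649 and 2936.

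**Figure D2:**
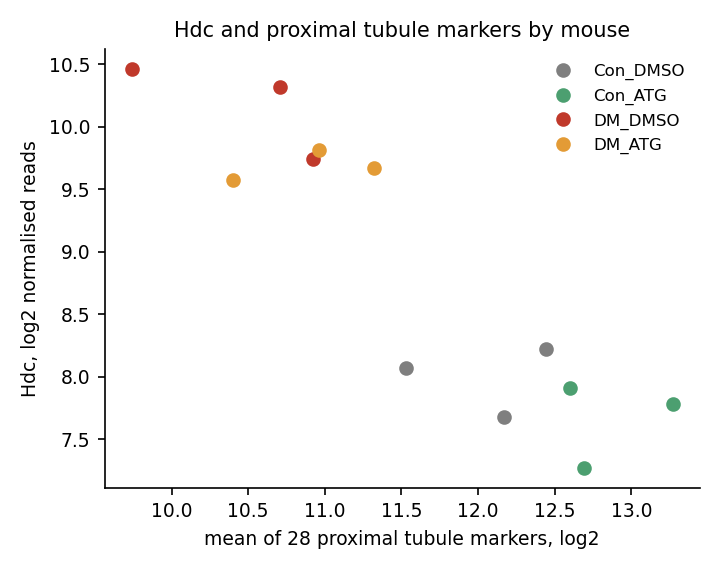
Hdc level (vertical axis) against the mean of 28 proximal tubule markers (horizontal axis), both in log2 normalised reads, with 1 point per mouse coloured by group. The diabetic mice lie at the upper left, with tubule means of 9.74 to 11.32, and the nondiabetic mice at the lower right, with tubule means of 11.53 to 13.27.

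Few markers of mast cells and basophils could be followed. Of 14 such genes, 4 were among the listed genes, and Cpa3, Cma1, Mcpt4, Tpsb2, Tpsab1, Fcer1a, Mcpt8, Mrgprb2, Il1rl1 and Prss34 were not, so the mast cell proteases that define the type were not analysed here. None of the 4 was called in diabetic mice under vehicle, against 18.9% of all listed genes. Ms4a2, the beta chain of the IgE receptor, was at 6.72, 6.61 and 6.36 in Con_DMSO and at 6.39, 6.51 and 6.36 in DM_DMSO (difference -0.14, SE 0.19, adjusted p = 0.624 by limma). Cd200r3, found on mast cells and basophils, differed by 0.21 (SE 0.20, adjusted p = 0.500 by limma). Both were counted at low levels, Ms4a2 at 55 to 100 reads per library and Cd200r3 at 84 to 157. Kit and Gata2, which other kidney cells also express, differed by -0.41 (SE 0.20, adjusted p = 0.164) and -0.03 (SE 0.12, adjusted p = 0.904). Under ATG, Kit fell by 0.80 (adjusted p = 0.00765) and Gata2 rose by 0.64 (adjusted p = 0.002) in diabetic mice. Gata2 made up 55.8 to 81.0% of the summed linear level of the 4 genes and Kit 12.9 to 37.2%, so that this sum mostly follows genes of other cells too. It was 2869.7 to 3486.4 in Con_DMSO, 2680.6 to 3067.7 in Con_ATG, 2745.1 to 3325.6 in DM_DMSO and 3203.7 to 3684.4 in DM_ATG. Ms4a2 and Cd200r3 alone summed to 188.9 to 238.5, 184.2 to 234.2, 178.5 to 259.8 and 191.0 to 228.1 in the same order, with overlap between all groups.

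Markers of myeloid cells were in part higher where Hdc was higher. Of 12 neutrophil and monocyte genes, 8 were listed, and 2 rose under vehicle and 3 under ATG, with none lower, against 10.2% and 25.9% of all listed genes that rose. Lyz2, the lysozyme of macrophages and neutrophils, was at 10.55, 10.03 and 11.07 in Con_DMSO and at 12.30, 11.69 and 11.83 in DM_DMSO (difference 1.39, SE 0.30, adjusted p = 0.0128 by limma). Itgam, the integrin CD11b, rose by 0.82 (SE 0.21, adjusted p = 0.0243 by limma). Both calls under vehicle were lost without Con_DMSO replicate 2 or DM_DMSO replicate 1, and that of Itgam also without Con_DMSO replicate 1 (adjusted p up to 0.0985). The listed neutrophil genes S100a8, S100a9 and Cxcr2 were not called, at 0.06, 0.19 and 0.03 under vehicle. They were counted at 31 to 145 reads per library. The summed level of the 8 genes was 1830.2 to 3133.7 in Con_DMSO, 1627.7 to 1919.2 in Con_ATG, 4309.9 to 6523.4 in DM_DMSO and 2583.4 to 4854.1 in DM_ATG, and Lyz2 alone made up 48.3 to 77.5% of it. Ly6g, Retnlg, Mpo and Elane, which mark neutrophils and their precursors, were not among the listed genes. Of 9 pan-leukocyte and macrophage genes, 7 were listed, of which 2 rose under vehicle and 3 under ATG. Cd68, Adgre1, Csf1r, Cd74 and Fcgr3 were not called under vehicle, at 0.81, 0.22, 0.21, 0.3 and 0.57. Tyrobp, a signalling adaptor of myeloid cells, rose by 0.74 (SE 0.21, adjusted p = 0.031 by limma) under vehicle, a call lost without any of 4 mice (adjusted p up to 0.116). The pan-leukocyte gene Ptprc rose by 0.52 (adjusted p = 0.0473 by limma), and its call was lost without any of 9 mice, with adjusted p up to 0.168. The part of myeloid cells in the Hdc level was not tested.

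Of the markers of the glomerulus itself, none fell under vehicle by limma. None of 12 podocyte markers was called, and 4 of 10 glomerular endothelial markers and 1 of 6 mesangial markers rose, against 10.2% of all listed genes that rose. Both counts came to 0 without Con_DMSO replicate 2 or DM_DMSO replicate 1. In nondiabetic mice given ATG, compared with those given vehicle, 6 of 10 endothelial and 5 of 6 mesangial markers fell, against 4.51% of all listed genes. Both counts came to 0 with only the groups compared or without the 2 mice with unnumbered titles, and the endothelial count also without any of 8 mice, while it came to 9 without Con_ATG replicate 3 or DM_DMSO replicate 3. The mean of the tubule markers was 12.85 in place of 12.05, and that of the podocyte markers 13.78 in place of 14.40. Their part in the lower Hdc mean of Con_ATG was not tested. The lists of podocyte, endothelial and mesangial markers had 3, 10 and 5 members that rose in diabetic mice under ATG, against 25.9% of all listed genes, so that the podocyte share was near that of all genes. The podocyte count came to 1 without any 1 of 4 mice and to 11 without Con_ATG replicate 3.

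Most listed genes around histamine and histidine metabolism that passed the test were lower in diabetic mice, opposite to Hdc. Of 35 genes in 6 lists, 24 were listed. Under vehicle, 1 of the 24 rose and 9 fell, against 10.2% and 8.63% of all listed genes, and their median difference was -0.14 beside 0.01 for all genes. Under ATG, 2 rose and 12 fell, against 25.9% and 20.8%, with a median of -0.37 beside 0.05. In the diabetic vehicle comparison the count of 10 came to 5 without Con_DMSO replicate 1 and to 4 without Con_DMSO replicate 2 or DM_DMSO replicate 1. With the proximal tubule mean as a covariate none of the 24 was called in either comparison, in a fit that called 0.0922% of all listed genes (13) under vehicle and 0.397% (56) under ATG.

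Of the 4 histamine receptors only Hrh1, which couples to calcium signalling in endothelium and smooth muscle, was listed, at 35 to 105 reads per library. Its log2 level was 6.44, 6.35 and 6.82 in Con_DMSO and 6.77, 6.01 and 6.55 in DM_DMSO, with a difference of -0.09 (SE 0.25, adjusted p = 0.821 by limma). It was 5.48, 5.52 and 5.99 in Con_ATG and 6.13, 6.58 and 6.00 in DM_ATG, a difference of 0.57 (SE 0.25, adjusted p = 0.0762 by limma). Con_ATG had the lowest mean, at 5.66, beside 6.54 in Con_DMSO, 6.44 in DM_DMSO and 6.24 in DM_ATG. Neither difference was called. Hrh2, Hrh3 and Hrh4 were not among the listed genes.

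Histamine breakdown was represented by 7 listed genes of 7, of which 3 fell under vehicle and 4 under ATG, against 8.63% and 20.8% of all listed genes, and none rose. Hnmt, the methyltransferase that inactivates histamine inside cells, was at 9.40, 9.32 and 9.43 in Con_DMSO and at 8.83, 8.91 and 8.85 in DM_DMSO. It was at 9.85, 9.55 and 9.43 in Con_ATG and at 8.91, 8.93 and 8.63 in DM_ATG. All diabetic mice were below all nondiabetic mice for this gene, as in 11.4% of all listed genes. Hnmt fell by 0.52 (SE 0.11, 1.44-fold, adjusted p = 0.0125 by limma) under vehicle. This call was lost with the title number as a block (adjusted p = 0.0576 by limma). Under ATG Hnmt fell by 0.78 (SE 0.11, 1.72-fold, adjusted p = 0.000552 by limma).

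Maob, a monoamine oxidase that acts on the methylated product of Hnmt, fell more. It was at 8.85, 8.97 and 8.88 in Con_DMSO and at 7.18, 7.83 and 6.97 in DM_DMSO, so that it fell by 1.57 (SE 0.27, 2.97-fold, adjusted p = 0.00576 by limma). Under ATG it fell by 1.89 (SE 0.27, 3.70-fold, adjusted p = 0.000532 by limma). Its sister gene Maoa, adjacent to it on the X chromosome, differed by 0.09 (adjusted p = 0.572) and 0.25 (adjusted p = 0.071), so the 2 oxidases did not share a direction in these means. The aldehyde dehydrogenase Aldh3a2 fell by 0.28 (adjusted p = 0.0388) and 0.48 (adjusted p = 0.00124). The first of these calls was lost on leaving out any of 8 of the 12 mice, with adjusted p up to 0.129. Aldh2, the mitochondrial aldehyde dehydrogenase, differed by -0.48 (adjusted p = 0.0555) under vehicle and fell by 0.71 (adjusted p = 0.00478) under ATG.

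The extracellular route was not called in either direction. Aoc1, the diamine oxidase that oxidizes histamine directly, was at 6.83, 5.71 and 6.34 in Con_DMSO and at 7.05, 6.96 and 5.88 in DM_DMSO (difference 0.34, adjusted p = 0.554 by limma). Its groups overlapped in both comparisons, and it was counted at 48 to 116 reads per library. Aldh1a1, a cytosolic aldehyde dehydrogenase, had higher means in diabetic mice, at 0.91 (adjusted p = 0.0535) under vehicle and 0.48 (adjusted p = 0.202) under ATG.

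Of the carriers that move histamine, 2 of 4 were listed. Slc22a2 (OCT2), a basolateral transporter of the proximal tubule, was at 10.08, 9.82 and 9.41 in Con_DMSO and at 8.49, 9.08 and 7.41 in DM_DMSO, so that it fell by 1.44 (SE 0.39, 2.72-fold, adjusted p = 0.0293 by limma). This call was lost without Con_DMSO replicate 1 or 2 or DM_DMSO replicate 1 or 3 (adjusted p up to 0.0967). Under ATG it fell by 1.89 (adjusted p = 0.00333 by limma). Slc18a2, the vesicular monoamine transporter that loads histamine into granules, was at 8.04, 7.46 and 7.73 in Con_DMSO and at 7.63, 7.63 and 7.89 in DM_DMSO (difference -0.03, adjusted p = 0.915 by limma). Under ATG it rose by 0.42 (adjusted p = 0.0391), a call lost on leaving out any of 7 mice (adjusted p up to 0.127).

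**Figure D3:**
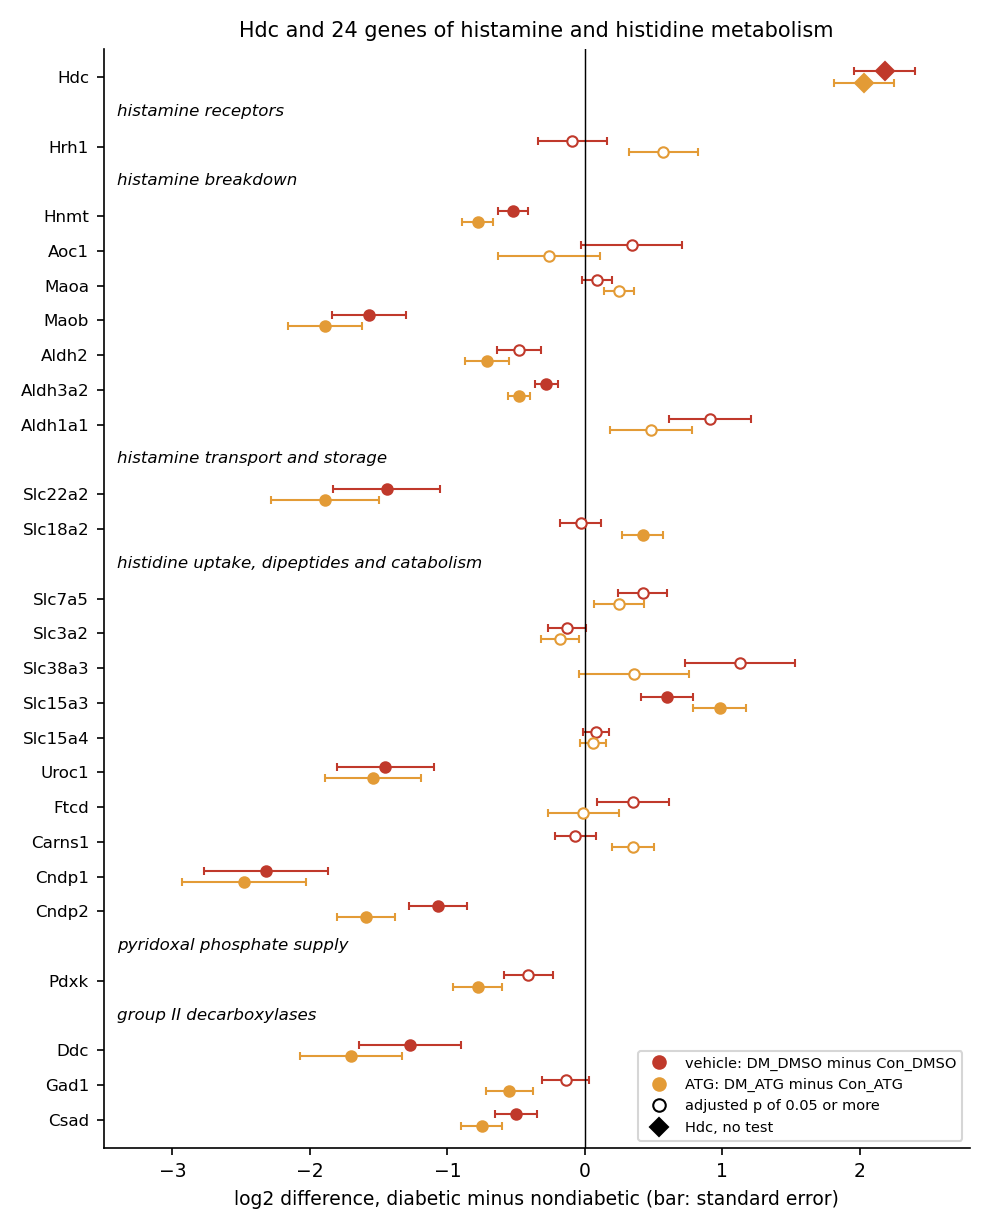
Differences in log2 level between diabetic and nondiabetic mice (horizontal axis, bars are the standard error of the fit) for Hdc (diamonds) and 24 listed genes in 6 lists, under vehicle (red) and ATG (orange). Hdc lies at 2.18 and 2.03, and of the genes with filled points (adjusted p under 0.05) 9 of 10 under vehicle and 12 of 14 under ATG lie to the left of 0.

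Supply of the substrate was covered by 10 listed genes of 13 for histidine uptake, its dipeptides and its catabolism, of which 1 rose and 3 fell under either treatment. Under vehicle 18.9% of all listed genes were called, and under ATG 46.7%, so that the called share of this list was not above that of all genes under ATG. Slc15a3, a lysosomal carrier of histidine and dipeptides, was the gene that rose, from 8.13, 7.68 and 8.06 in Con_DMSO to 8.67, 8.59 and 8.41 in DM_DMSO (difference 0.60, SE 0.19, adjusted p = 0.0451 by limma), and by 0.98 (adjusted p = 0.00208) under ATG. The call under vehicle was lost on leaving out any of 8 mice (adjusted p up to 0.163). It fell by 0.73 in nondiabetic mice given ATG (adjusted p = 0.0469), the 1 gene of the 24 called in that comparison, in which 5.22% of all listed genes were called, 0.709% higher and 4.51% lower. That call was lost without any of 9 mice, with adjusted p up to 0.177.

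The 3 genes of this list that fell were a pair of dipeptidases and an enzyme of histidine catabolism. Cndp1, which splits carnosine into beta-alanine and histidine, was at 7.89, 7.97 and 7.23 in Con_DMSO and at 6.04, 5.77 and 4.32 in DM_DMSO, so that it fell by 2.32 (SE 0.45, 4.99-fold, adjusted p = 0.00932 by limma). The related dipeptidase Cndp2 fell by 1.07 (SE 0.21, 2.10-fold, adjusted p = 0.00883 by limma). Uroc1, the urocanase of histidine catabolism, fell by 1.45 (SE 0.35, 2.73-fold, adjusted p = 0.0195 by limma), a call lost without Con_DMSO replicate 2 or 3 or DM_DMSO replicate 1 (adjusted p up to 0.0734). All 3 fell under ATG, with differences of -2.48, -1.59 and -1.54. The plasma membrane carriers Slc7a5, Slc3a2 and Slc38a3 were not called, at 0.42, -0.13 and 1.13 under vehicle. Hal, the enzyme that competes with Hdc for histidine, was not among the listed genes.

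Pdxk, the kinase that makes pyridoxal phosphate, was at 11.31, 11.33 and 11.32 in Con_DMSO and at 11.04, 11.14 and 10.54 in DM_DMSO (difference -0.41, adjusted p = 0.133 by limma), and it fell by 0.78 (adjusted p = 0.00606) under ATG.

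The 3 listed decarboxylases of the family that Hdc belongs to had lower means where Hdc was higher, and 2 of them fell under vehicle and 3 under ATG, against 8.63% and 20.8% of all listed genes. Ddc, the aromatic amino acid decarboxylase that makes dopamine in the proximal tubule, was at 9.24, 8.57 and 7.87 in Con_DMSO and at 7.40, 7.66 and 6.80 in DM_DMSO. It was at 9.21, 9.78 and 9.37 in Con_ATG and at 7.98, 8.19 and 7.08 in DM_ATG. Ddc fell by 1.27 (SE 0.37, 2.42-fold, adjusted p = 0.037 by limma) under vehicle and by 1.70 (SE 0.37, 3.25-fold, adjusted p = 0.00423) under ATG. The first call was lost without Con_DMSO replicate 1 or 2 or DM_DMSO replicate 1 or 3 (adjusted p up to 0.126). Csad, which makes hypotaurine on the way to taurine, fell by 0.50 (adjusted p = 0.0432) and 0.75 (adjusted p = 0.00291), and the first of these was lost without any of 8 mice (adjusted p up to 0.127). Gad1, which makes GABA, differed by -0.14 (adjusted p = 0.581) under vehicle and fell by 0.55 (adjusted p = 0.0224) under ATG, a call lost without Con_ATG replicate 2 or DM_ATG replicate 2 or 3. Gad2 and Gadl1 were not among the listed genes.

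Between diabetic mice given ATG and diabetic mice given vehicle, none of the 24 genes was called by limma, and none had an unadjusted p under 0.05. Of all listed genes 0.0% were called in this comparison by limma on the deposited values or by limma-voom on recovered reads, and 4.51% had an unadjusted p under 0.05. The median difference of the 24 genes was 0.03. The difference of Hdc itself, -0.49, was lower than that of all but 137 listed genes.

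Hdc is one of the genes that differ between male and female mouse kidney, and other such genes were looked at in these male mice. Of 8 genes known to be higher in males, all listed, 5 fell and 1 rose in diabetic mice under vehicle, against 8.63% and 10.2% of all listed genes. Kap, an androgen-dependent protein of the proximal tubule, was at 16.17, 16.19 and 15.73 in Con_DMSO and at 12.33, 14.31 and 11.94 in DM_DMSO, so that it fell by 3.17 (SE 0.55, 9.01-fold, adjusted p = 0.00602 by limma), and by 3.9 without DM_DMSO replicate 2. Slco1a1, an organic anion transporter, was at 9.78, 9.29 and 8.82 in Con_DMSO and at 6.29, 6.77 and 6.09 in DM_DMSO, so that it fell by 2.91 (SE 0.40, 7.54-fold, adjusted p = 0.00269 by limma). Cyp4a12a, Cyp2d9 and Odc1 fell, with differences of -2.19, -2.06 and -0.63 and adjusted p of 0.0081, 0.0169 and 0.0196 by limma. Cyp4a12a and Cyp2d9 have near-identical paralogs between which reads can be split, and Cyp4a12b, the closest paralog of the first, differed by -0.12 (adjusted p = 0.794). Gusb, the lysosomal beta-glucuronidase, rose by 0.39 (adjusted p = 0.0133). The calls of Cyp2d9 and Odc1 were lost without Con_DMSO replicate 1 or 2 or DM_DMSO replicate 1, and that of Gusb without Con_DMSO replicate 2.

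The markers of the tubule fell alongside, as given above, and with the tubule mean as a covariate none of the 9 sex-dimorphic genes was called, in a fit that called 0.0922% of all listed genes under vehicle and 0.397% under ATG. Of 3 genes known to be higher in females, 1 was listed. Prlr, the prolactin receptor, differed by -0.01 (SE 0.16, adjusted p = 0.96 by limma) under vehicle and fell by 0.52 (adjusted p = 0.0224 by limma) under ATG, the second call lost without Con_ATG replicate 2 or DM_ATG replicate 3.

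The nearest listed gene to Hdc moved the other way. Slc27a2, a fatty acid transport protein and acyl-CoA synthetase of the proximal tubule, lies on the plus strand of chromosome 2 at 126553023 to 126588243, so the 2 genes end tail to tail with 5415 bases between them. It was at 13.65, 13.51 and 12.90 in Con_DMSO and at 11.82, 12.15 and 10.85 in DM_DMSO, so that it fell by 1.75 (SE 0.36, 3.36-fold, adjusted p = 0.0107 by limma). In Con_ATG it was at 13.88, 14.80 and 14.02 and in DM_ATG at 12.15, 12.30 and 11.52, so that it fell by 2.24 (SE 0.36, 4.74-fold, adjusted p = 0.000924 by limma). It is also 1 of the 28 proximal tubule markers. All 6 diabetic mice were below all 6 nondiabetic mice, the reverse of Hdc, as in 11.4% of all listed genes.

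Of the 10 listed genes within 500 kb of Hdc, 1 rose and 2 fell under vehicle, where 18.9% of all listed genes were called. Under ATG 2 rose and 3 fell, near the 46.7% of all listed genes called there. Ncaph, a subunit of condensin that compacts chromosomes in mitosis, lies 485.1 kb away. It was at 6.70, 6.53 and 6.49 in Con_DMSO and at 7.74, 7.76 and 7.61 in DM_DMSO, so that it rose by 1.13 (SE 0.12, 2.19-fold, adjusted p = 0.0018 by limma), and it rose by 1.03 under ATG (adjusted p = 0.000245). Trpm7, a magnesium channel with a kinase domain, fell by 0.65 (SE 0.18, adjusted p = 0.032 by limma) and 0.76 (adjusted p = 0.00677). The first of these was lost without any of the 3 Con_DMSO mice or DM_DMSO replicate 1 or 3 (adjusted p up to 0.114). Gabpb1, the neighbour on the side of the Hdc promoter at 20.3 kb, differed by 0.15 (SE 0.08, adjusted p = 0.203) and 0.19 (adjusted p = 0.068). Usp8, Sppl2a, Ap4e1 and Dtwd1 lay between -0.15 and 0.21 in both comparisons and were not called. Under ATG, Atp8b4 rose by 0.35 (adjusted p = 0.0222) and Blvra fell by 0.25 (adjusted p = 0.0345), and Blvra rose by 0.36 in nondiabetic mice given ATG (adjusted p = 0.038). Atp8b4 and Blvra each lost the call for diabetes under ATG without any 1 of 3 mice, Con_ATG replicate 1 and DM_ATG replicate 3 among them in both genes, and Blvra lost the call in nondiabetic mice without any 1 of 8 mice.

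**Figure D4:**
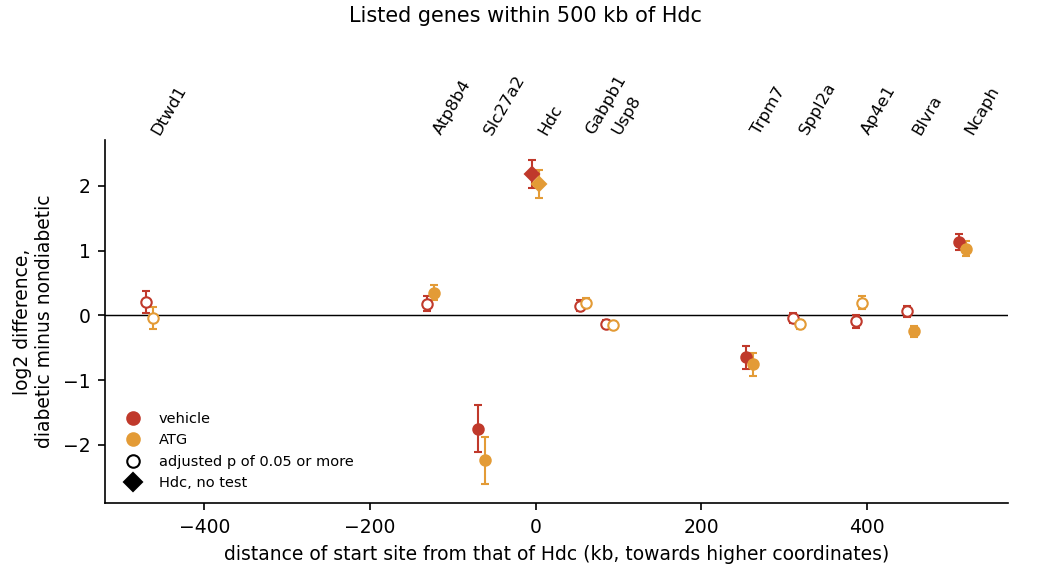
Differences in log2 level between diabetic and nondiabetic mice (vertical axis, bars are the standard error) for Hdc (diamonds) and the 10 listed genes within 500 kb of its ends, by the distance between start sites in kb. Hdc stands at 2.18 and 2.03 between Slc27a2, at -1.75 and -2.24, and Gabpb1, at 0.15 and 0.19.

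The genes whose levels followed Hdc most closely across the 12 mice were Tnfaip1 (Pearson r = 0.985), Rtn2 (0.984), Arrdc2 (0.982), Necap2 (0.982), Rap1a (0.981), Cenpl, Ykt6, Prdx4, Marcksl1 and F2rl3 (0.976 each). They were picked as the highest of 14095, and the mice share groups, tissue content and library, so r is given as a description. It follows the 2 levels formed by diabetic and nondiabetic mice, and 132 genes reached 0.95 while 89 were at or below -0.95. Tnfaip1, an adaptor of a ubiquitin ligase, was at 11.95, 11.84 and 11.94 in Con_DMSO, 11.55, 11.70 and 11.83 in Con_ATG, 12.51, 12.37 and 12.60 in DM_DMSO, and 12.49, 12.35 and 12.42 in DM_ATG. The order of its group means was the same as for Hdc, on a scale of 0.58 between DM_DMSO and Con_DMSO in place of 2.18. Marcksl1, an actin-binding substrate of protein kinase C, came closer in size, with a difference of 1.30 under vehicle and 1.38 under ATG. F2rl3, the thrombin receptor PAR4, differed by 1.06 and 1.38.

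The genes most opposite to Hdc were Srl (r = -0.983), Oma1 (-0.983), 4930545L23Rik (-0.980), Acad12 (-0.979) and Egf (-0.978). Srl, known as a calcium-binding protein of muscle, was at 8.76, 9.37 and 8.98 in Con_DMSO and at 7.42, 7.85 and 7.03 in DM_DMSO. Egf, a growth factor made in the distal tubule, was at 16.24, 16.34 and 16.22 in Con_DMSO and at 14.24, 14.88 and 13.80 in DM_DMSO. Of the 13 distal nephron markers 5 fell in diabetic mice under vehicle and 10 under ATG, against 8.63% and 20.8% of all listed genes. The first count came to 1 without Con_DMSO replicate 2, 2 without Con_DMSO replicate 1 or 3 or DM_DMSO replicate 1, and 10 without DM_DMSO replicate 2.

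**Figure D5:**
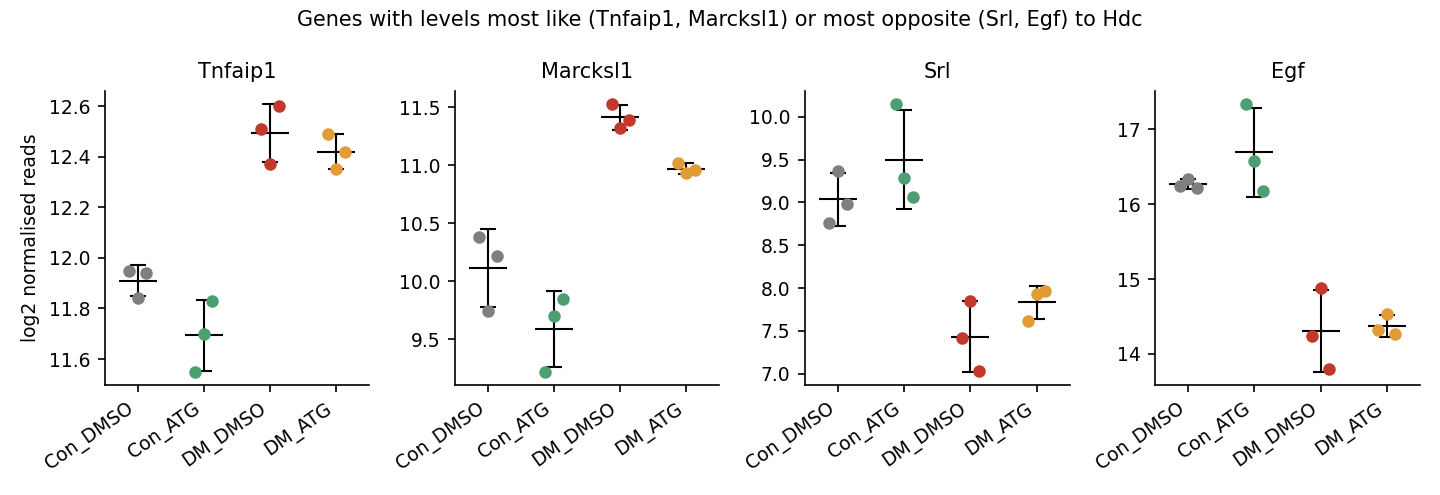
Levels in log2 normalised reads (vertical axes, 1 scale per panel) of Tnfaip1 and Marcksl1, most like Hdc, and Srl and Egf, most opposite to it, in each mouse (points) with group mean and SD (black). The group means of Tnfaip1 are 11.91, 11.69, 12.49 and 12.42, and those of Egf are 16.27, 16.70, 14.31 and 14.38.

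By the size of the change, another set of genes lay nearest to Hdc. The root mean square difference between log2 values, each centred on its own mean, was lowest for Fam212b (0.307), Cdk1 (0.309), Fam64a (0.314), Phlda3 (0.339) and Mki67 (0.340), followed by Eda2r, Psrc1, Cdkn1a, Ckap2 and 5033406O09Rik (up to 0.390). Mki67 is the proliferation marker Ki-67, Cdkn1a encodes the cell cycle inhibitor p21, and Phlda3 and Eda2r are known p53 targets. Their differences for diabetes under vehicle were 1.69 for Fam212b, 2.05 for Cdk1, 1.90 for Fam64a, 1.69 for Phlda3, 1.73 for Mki67, 2.15 for Eda2r, 2.13 for Psrc1, 1.74 for Cdkn1a, 2.33 for Ckap2 and 1.88 for 5033406O09Rik, beside 2.18 for Hdc. None of these 10 was among the 10 with the highest r.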

How the data were processed

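Poly-A selected mRNA of glomeruli from 12 mice was sequenced. Each deposited table belongs to 1 mouse and holds log2 normalised read counts, not corrected for length. On the linear scale 83.4 to 84.0% of values under 2000 reads were whole multiples of 1 step per library (1.00 to 1.27, tolerance 0.02), and 14096 genes are listed, each reaching at least 100 in some library. The submitters' processing notes name the mm10 build and limma, and the aligner and counter are not given in the sources used here. The labels' treatment protocol also describes cell dissociation and sorting, which the methods do not, and the libraries were treated as whole glomeruli.

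Samples were grouped by the description label. All listed genes were fitted with limma 3.58.1 (lmFit, eBayes with a trend, R 4.3.3) as 4 groups, with Benjamini-Hochberg adjustment over all 14096 genes and calls at an adjusted p under 0.05. The fit was tested on simulated data. P-values measure the spread between these samples. A further 2 genes were removed from the lists and are not reported here. Members and gene lists were chosen with earlier results of these data known. Named were Hdc, all listed receptor, breakdown, transport and decarboxylase genes, up to 5 genes of each other list among those passing with the lowest p, the 10 genes most like and 5 most opposite to Hdc, the 3 above and 3 below it in level, and up to 10 listed genes within 500 kb. Genes beyond this rule (the tubule markers Slc34a1 and Lrp2, those with wider gaps than Hdc, those nearest by size of change, and examples of genes not called) were chosen after their values were seen. Promoters came from the RefSeq table of GRCm38.p6. Alternatives were median-ratio scaling, limma-voom on recovered reads, a minimum of 10 reads, only the groups compared, the title number as a block, the tubule mean as a covariate, leaving out mice, and no trend.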

Additional observations from a re-analysis of the deposited data

Results flagged for a closer look

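For 2 mesangial markers the difference between ATG and vehicle was not the same in diabetic and nondiabetic mice, by the interaction term of the limma fit. Itga8, the integrin alpha 8 chain of mesangial cells, had an interaction of 1.34 (log2, SE 0.22, adjusted p = 0.0443), with 13.27, 12.97 and 12.86 in Con_DMSO, 11.62, 12.07 and 12.14 in Con_ATG, 12.77, 12.62 and 13.02 in DM_DMSO, and 12.99, 13.21 and 12.97 in DM_ATG. Pdgfrb, the PDGF receptor of mesangial cells and pericytes, had an interaction of 1.03 (SE 0.19, adjusted p = 0.0455), with group means of 12.07, 11.06, 11.78 and 11.80 in the same order. In both genes every Con_ATG mouse was below every Con_DMSO mouse. That also held for the other mesangial markers (Gata3, Des, Serpine2 and Cspg4) and for every endothelial marker examined but Plat. In Con_ATG the means of other markers also differed from Con_DMSO, at 12.85 in place of 12.05 for the proximal tubule, 13.78 in place of 14.40 for podocytes and 13.47 in place of 14.11 for the glomerular endothelium, and their part in the interaction was not tested. The call was lost for both genes without any 1 of at least 9 of the 12 mice. Of all listed genes 0.546% were called by this term, and for Hdc the interaction was -0.15 (SE 0.30).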

How the results depend on the processing

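The differences of Hdc for diabetes, under vehicle and under ATG, moved by less than the spread within groups under all 20 alternatives run, and without 1 mouse they ranged from 2.03 to 2.40 and from 1.84 to 2.16. Without 1 mouse, ATG in diabetic mice ranged from -0.71 to -0.35, ATG in nondiabetic mice from -0.49 to -0.15, and the interaction from -0.37 to 0.00. Without the 2 mice with unnumbered titles the last 2 values were -0.03 and -0.46. The cause was not tested.

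Of the 24 pathway genes, the count of 10 called under vehicle came to 5 with the replicate block, 6 without the 2 unnumbered mice and 4 to 12 without 1 mouse. Among the 10 themselves, only Maob, Cndp1 and Cndp2 passed with the block, so the 5 include genes not called without it. The count of 14 under ATG came to 12 to 16 without 1 mouse. The 1 called for ATG in nondiabetic mice came to 0 with median-ratio scaling, voom, only the groups compared, the tubule covariate, no trend, or without the 2 unnumbered mice, and to 0 to 7 without 1 mouse (7 without Con_ATG replicate 3). The neighbours called (3, 5 and 1 for diabetes, diabetes under ATG and ATG in nondiabetic mice) came to 2 to 3, 3 to 7 and 0 to 3 without 1 mouse. Under ATG they came to 3 with only the groups compared, with the replicate block or without the unnumbered mice, and in nondiabetic mice to 0 with only the groups compared or without the unnumbered mice. Of the 9 listed sex-dimorphic genes, 6 were called under vehicle and 7 under ATG, beside 18.9% and 46.7% of all listed genes. Without 1 mouse these counts came to 3 to 7 (3 without Con_DMSO replicate 2) and 6 to 8, and to 0 to 1 for ATG in nondiabetic mice.

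The fit with the tubule covariate called 13 and 56 of all genes. The covariate averages Slc27a2, Slc34a1 and Lrp2 themselves among its markers, so the loss of their calls was built into that fit. With the covariate, pathway, neighbour and sex-dimorphic calls all came to 0, and 10 called differences turned direction: under vehicle Slc22a2 (0.29), Ddc (0.30) and Csad (0.04), and under ATG Aldh2 (0.08), Slc22a2 (0.24), Ddc (0.24), Blvra (0.11), Prlr (0.11), Slc34a1 (0.01) and Kit (0.02), none called. Of 64 calls (the pathway, neighbour and sex-dimorphic genes, 8 markers and 2 genes of like level), the other 54 kept their direction there without passing. Of these 64, the calls passed in 63 under voom, 60 under median-ratio scaling, 64 with a minimum of 10 reads, 60 without a trend, 54 with only the groups compared and 42 with the replicate block.

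The title numbers were not taken as pairing, since equal numbers are different animals and their deviations from the group means correlated from -0.59 to 0.339. Over all listed genes the block gave 778 higher and 597 lower under vehicle (1442 and 1217 without it), and 2534 and 1888 under ATG (3649 and 2936). For ATG in nondiabetic mice, 100 genes rose and 636 fell, beside 0 and 0 with only the groups compared, 0 and 8 without the unnumbered mice, and 130 and 408 with median-ratio scaling.

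Of the 10 genes most like Hdc, 1 was among the top 10 by Spearman, 2 by deviations from group means, 0 by root mean square difference and 2 to 9 without 1 mouse (2 without DM_DMSO replicate 3). The share of like-level genes with a larger SD was 0.674% in a window of 0.1 and 0.28 to 0.696% without 1 mouse. With 121 to 272 reads in nondiabetic mice, Hdc was counted less precisely there than in diabetic mice.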
